A study of Mus musculus with 48 samples.

Results

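Class I genes of the mouse major histocompatibility complex (MHC) were followed through 48 RNA libraries of the thoracic mammary gland. The 10 genes are 9 class I heavy chains (H2-K1, H2-D1, H2-Q1, H2-Q2, H2-Q4, H2-Q6, H2-Q7, H2-Q10 and H2-T23) and B2m, out of 55487 genes measured. They were found by symbol, each as 1 row, and 9 of the 10 passed a filter of at least 1 TPM (transcript abundance per length, scaled to the same total in each library) in at least 3 libraries, which H2-Q1 did not. They were chosen by their TPM differences between the mouse models, so that difference is given as a description with no p-value, and counts past a threshold in it are fixed in part by the choice.

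Mice of the Esr1 model carried MMTV-rtTA/tet-op-Esr1, and mice of the other model carried MMTV-rtTA/tet-op-CYP19A1. Esr1 encodes estrogen receptor alpha and CYP19A1 encodes aromatase, the enzyme that makes estrogens. MMTV-rtTA is shared by all groups, the uninduced ones included, and is a transcription activator that works in the presence of doxycycline, made under the control of the MMTV promoter, which is used mainly in mammary epithelium. Each model had 8 groups of 3 libraries. Induced glands had 1 week of induction at 12 months or at 18 months of age, 6 or 12 months of induction at 24 months, or 18 months of induction at 30 months. Uninduced glands were taken at 12, 18 and 24 months. There was no uninduced group of 30 months and none with the inducing drug but no responder transgene, so drug and transgene cannot be told apart. The labels give no strain, and they call libraries of a group biological replicates without saying that each came from a separate mouse. The p-values below measure the spread between libraries.

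Class I molecules carry peptides from inside the cell to its surface. A polymorphic heavy chain pairs with beta-2 microglobulin, the product of B2m, and the complex is read by CD8 T cells and by receptors of natural killer (NK) cells. H2-K1 and H2-D1 are the classical heavy chains, made by nearly all nucleated cells. The genes of the Q and T regions encode nonclassical heavy chains: H2-Q6 and H2-Q7 belong to the genes that encode Qa-2, H2-T23 encodes Qa-1, which binds the CD94/NKG2 receptors of NK cells, and H2-Q10 encodes a secreted chain known from liver. Class I genes carry many alleles, and the number of Q genes differs between mouse strains. Transcription of the classical genes is driven by a short promoter with a site for NF-kappa B (enhancer A), an interferon response element and a composite module that recruits NLRC5, the class I transactivator.

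The promoters of 6 of the genes are shown because they cover genes that were higher in Esr1 glands (H2-K1, H2-Q6, H2-Q7, H2-T23 and B2m) and the one that was lower (H2-Q2). The windows run from 250 bases before to 50 bases after the start of the RefSeq gene (GRCm38.p6) and read 5′ to 3′ along the gene's strand. Capitals mark matches, on either strand, to GGGGATTCCC (enhancer A) and AGTTTCACTTC (the interferon response element), both in the letters that H2-K1 carries, and to TGACG (core of the X2 box) and CCAAT (core of the Y box). The windows are chr17:34000298-34000597 (minus strand) for H2-K1, chr17:35424600-35424899 (plus) for H2-Q6, chr17:35438905-35439204 (plus) for H2-Q7, chr17:35342057-35342356 (plus) for H2-Q2, chr17:36032652-36032951 (minus) for H2-T23 and chr2:122147437-122147736 (plus) for B2m.
H2-K1: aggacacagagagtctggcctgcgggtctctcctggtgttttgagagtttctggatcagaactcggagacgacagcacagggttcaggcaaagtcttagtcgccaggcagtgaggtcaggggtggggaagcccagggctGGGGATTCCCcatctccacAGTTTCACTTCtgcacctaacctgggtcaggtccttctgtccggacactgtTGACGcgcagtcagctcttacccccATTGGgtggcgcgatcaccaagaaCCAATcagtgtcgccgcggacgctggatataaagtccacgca
H2-Q6: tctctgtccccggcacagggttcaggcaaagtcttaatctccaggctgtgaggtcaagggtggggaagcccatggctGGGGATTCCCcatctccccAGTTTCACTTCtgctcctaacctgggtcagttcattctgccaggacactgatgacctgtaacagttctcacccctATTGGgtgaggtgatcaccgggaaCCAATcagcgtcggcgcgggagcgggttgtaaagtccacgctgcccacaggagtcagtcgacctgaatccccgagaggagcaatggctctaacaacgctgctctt
H2-Q7: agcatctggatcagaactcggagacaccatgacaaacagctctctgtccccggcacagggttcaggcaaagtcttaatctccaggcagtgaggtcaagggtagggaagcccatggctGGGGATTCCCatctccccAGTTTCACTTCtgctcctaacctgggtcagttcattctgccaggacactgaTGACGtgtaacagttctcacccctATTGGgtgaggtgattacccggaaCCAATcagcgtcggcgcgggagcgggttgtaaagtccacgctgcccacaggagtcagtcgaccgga
H2-Q2: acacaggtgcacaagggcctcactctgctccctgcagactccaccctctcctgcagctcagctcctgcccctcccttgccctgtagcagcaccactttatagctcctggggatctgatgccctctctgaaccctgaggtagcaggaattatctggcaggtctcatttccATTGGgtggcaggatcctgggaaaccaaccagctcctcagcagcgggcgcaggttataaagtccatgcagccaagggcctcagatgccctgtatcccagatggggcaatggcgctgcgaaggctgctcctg
H2-T23: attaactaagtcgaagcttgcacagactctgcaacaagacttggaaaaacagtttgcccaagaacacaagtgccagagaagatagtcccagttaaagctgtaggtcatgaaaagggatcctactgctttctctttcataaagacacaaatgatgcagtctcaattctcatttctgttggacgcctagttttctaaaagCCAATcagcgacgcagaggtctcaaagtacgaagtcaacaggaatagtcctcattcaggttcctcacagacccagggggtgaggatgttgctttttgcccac
B2m: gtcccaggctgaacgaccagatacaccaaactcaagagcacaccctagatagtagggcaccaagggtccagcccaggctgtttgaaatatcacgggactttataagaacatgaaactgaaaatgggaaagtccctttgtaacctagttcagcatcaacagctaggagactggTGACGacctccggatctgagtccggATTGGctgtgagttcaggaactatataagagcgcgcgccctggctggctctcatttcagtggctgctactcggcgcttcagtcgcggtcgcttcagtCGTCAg

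A window was given for 9 of the 10 genes. Enhancer A in those letters occurred in 4 of the 9 (H2-K1, H2-D1, H2-Q6 and H2-Q7) and in 0.107% of all 32851 promoter windows. The interferon response element occurred in 6 of the 9 (those 4, H2-Q4 and H2-Q10), against 0.0517% of all windows. The letters of both motifs were read from the H2-K1 window, so the H2-K1 matches were fixed in advance. The short motifs were common: TGACG was in 5 of the 9 windows and in 20.8% of all windows, and CCAAT was in 8 of the 9 and in 37.4% of all windows. The H2-Q2 and H2-T23 windows held CCAAT and none of the other 3 motifs, and the B2m window held TGACG and CCAAT. A match is a run of letters, and its use in these glands was not tested.

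All heavy-chain genes lie on chromosome 17 in GENCODE M21 (mm10). H2-K1 spans positions 33996017 to 34000347 on the minus strand, and H2-D1 spans 35262730 to 35267499 on the plus strand. The Q genes follow on the plus strand, with H2-Q1 at 35320405 to 35325099, H2-Q2 at 35342242 to 35346762, H2-Q4 at 35379617 to 35385290, H2-Q6 at 35424850 to 35430055, H2-Q7 at 35439155 to 35443773 and H2-Q10 at 35470089 to 35474563. H2-T23 is at 36029773 to 36032855 on the minus strand, and B2m is on chromosome 2 at 122147686 to 122153083 on the plus strand.

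Some libraries stand apart. The genes CT010467.1, AY036118 and Lars2, which take reads of ribosomal RNA, held over 10% of TPM in 9 libraries, 2 of the Esr1 model and 7 of the CYP19A1 model, and up to 67.2% in 1. Since TPM sum to 1 fixed total, the other genes of such a library are listed lower, and values were also rescaled by median-of-ratios factors (0.31 to 1.45). All 3 libraries of the CYP19A1 model with 1 week of induction at 12 months are among the 9. The number of genes at 1 TPM or more ran from 11028 to 17605. The read depth of each library is unknown, so no counting interval can be given. Esr1 averaged 14.6 ± 3.77 TPM after 1 week of induction at 12 months and 12.0 ± 2.62 TPM in uninduced glands of that age in the Esr1 model (SD, n = 3 each), and 17.9 ± 6.93 TPM with induction and 11.8 ± 3.11 TPM without it at 18 months. At 24 months it averaged 11.3 ± 2.16 TPM with 6 months of induction, 10.5 ± 3.78 TPM with 12 months and 13.3 ± 2.91 TPM without, and at 30 months 11.6 ± 2.90 TPM. Induced and uninduced libraries overlapped at 12, 18 and 24 months, so Esr1 TPM do not check the induction labels, and whether transgene reads enter this row is not given in the sources used here. Mouse Cyp19a1 was at 0.29 TPM or less in all 48 libraries, and how reads of the CYP19A1 transgene were assigned is not given in the sources used here.

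B2m was the most abundant of the genes per length and H2-Q1 the least. Averaged over the libraries of a model, B2m reached 1016 ± 455 TPM in Esr1 glands and 512 ± 193 TPM in CYP19A1 glands (SD, n = 24 each). H2-K1 reached 624 ± 257 TPM and 308 ± 127 TPM, and H2-D1 465 ± 236 TPM and 320.4 ± 167 TPM, in the same order of models. B2m stood above H2-K1 in 48 of 48 libraries. H2-K1 and H2-D1 overlapped, with H2-K1 the higher in 21 of 24 Esr1 libraries and in 7 of 24 CYP19A1 libraries. H2-D1 exceeded H2-T23 in 48 of 48 libraries. H2-T23 (Qa-1) and H2-Q4 overlapped, with H2-T23 higher in 20 of 24 Esr1 libraries and 11 of 24 CYP19A1 libraries. H2-Q4 exceeded H2-Q7 in 48 of 48 libraries, and H2-Q7 exceeded H2-Q6 in 32 of 48. H2-Q2 was below H2-Q6 in 24 of 24 Esr1 libraries and above it in 19 of 24 CYP19A1 libraries.

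**Figure D1:**
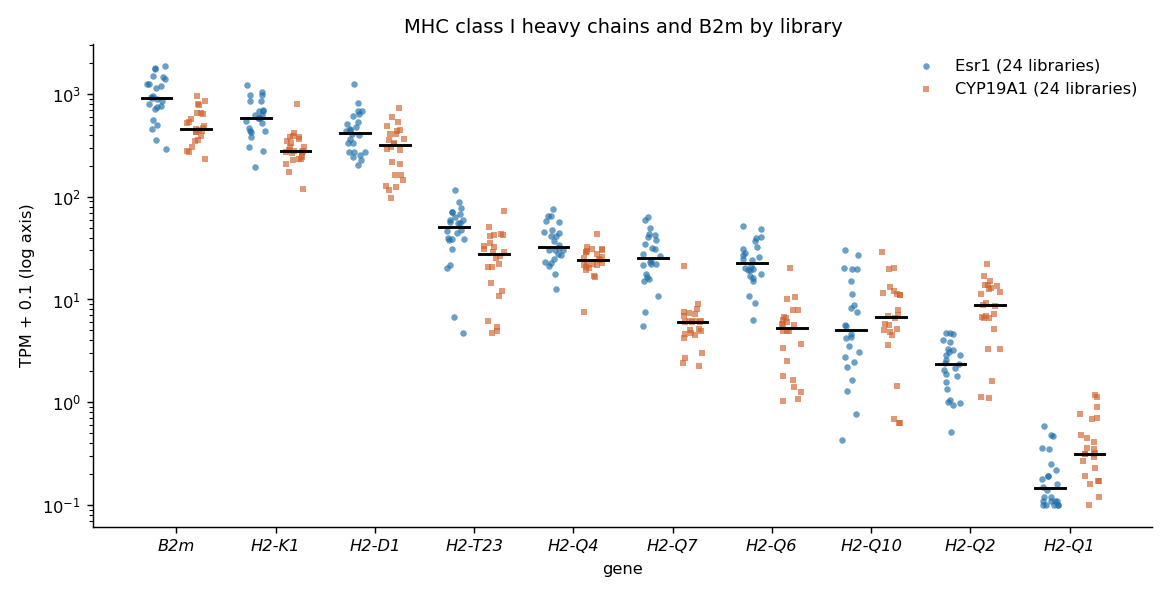
TPM of the 10 genes in each library, on a log axis after adding 0.1. Blue circles are the 24 Esr1 libraries and orange squares the 24 CYP19A1 libraries, and black lines are medians. H2-Q6 and H2-Q7 sit higher in Esr1 libraries (medians 22.4 and 25.3 TPM) than in CYP19A1 libraries (5.22 and 5.94 TPM), and H2-Q2 sits lower (2.27 TPM against 8.67 TPM).

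H2-Q1 was close to the limit of detection. It ran from 0 to 0.49 TPM in Esr1 libraries, with 5 of 24 listed at 0, and from 0 to 1.07 TPM in CYP19A1 libraries, with 1 of 24 listed at 0. Its highest values were 1.07 TPM, in 1 CYP19A1 library with 6 months of induction, and 1.03 TPM, in 1 with 12 months of induction. It did not enter the tests.

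The class I genes resemble each other, which limits how far single rows can be read. Exact 75-base windows of the annotated transcripts, the length of a read here, were shared with transcripts of other genes for 17.9% of H2-Q6 windows and 17% of H2-Q7 windows. The shares were 12.5% for H2-Q10, 10.9% for H2-Q1, 8.07% for H2-Q2, 7.02% for H2-Q4, 5.91% for H2-T23, 5.4% for H2-D1 and 3.1% for H2-K1. B2m shared none of its 786 windows. Not all of the sharing was with class I genes. H2-Q4 shared 89 windows with H2-Q6, 46 with Olfr1238 and 37 with Olfr552, and H2-Q6 shared 47 with Efr3a. H2-Q6 shared 197 windows with H2-Q7, and H2-Q7 shared 416 with H2-Q10 and 249 with the Q gene H2-Q5. Reads of these genes can thus be divided between rows, and their single values are uncertain. Reads that carry an allele other than that of the reference may match less well. Which alleles these mice carry, and how that affects the values, was not tested.

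The classical genes and B2m were listed higher in Esr1 glands than in CYP19A1 glands. H2-K1 ran from 197 to 1219.6 TPM with a median of 584 TPM in Esr1 libraries, and from 120.2 to 799 TPM with a median of 281 TPM in CYP19A1 libraries. The ranges overlapped over all libraries, but within age and induction the 3 Esr1 libraries all exceeded the 3 CYP19A1 libraries in 5 of 8 pairs of groups. For 1.3% of all genes this was so in at least 5. The mean log2 difference of H2-K1 over the 8 pairs was 0.98 (standard error, SE, 0.16) on the log2(TPM + 1) scale, a fold of 1.98, and was 0.82 after rescaling. B2m ran from 289.6 to 1879.6 TPM (median 923 TPM) in Esr1 libraries and from 231 to 958 TPM (median 459 TPM) in CYP19A1 libraries, with a log2 difference of 0.92 (SE 0.16). All its Esr1 libraries were above in 3 of 8 pairs, and 7.87% of all genes were so in at least 3. H2-D1 ran from 204 to 1244 TPM (median 419 TPM) in Esr1 libraries and from 97.3 to 733 TPM (median 318 TPM) in CYP19A1 libraries. Its log2 difference was 0.59 (SE 0.20), and in no pair of groups did all Esr1 libraries exceed all CYP19A1 libraries. At 30 months H2-D1 was lower in the Esr1 model without overlap, at 244, 204 and 273 TPM in Esr1 glands, against 329, 360.3 and 486 TPM in CYP19A1 glands, as were 24.6% of all genes.

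The Q genes diverged from each other. H2-Q6 ran from 6.20 to 52.2 TPM (median 22.4 TPM) in Esr1 libraries and from 0.93 to 20.1 TPM (median 5.22 TPM) in CYP19A1 libraries. H2-Q7 ran from 5.39 to 63.8 TPM (median 25.3 TPM) in Esr1 libraries and from 2.13 to 21.3 TPM (median 5.94 TPM) in CYP19A1 libraries. For both genes all Esr1 libraries exceeded all CYP19A1 libraries in 6 of 8 pairs of groups. The log2 differences were 2.13 (SE 0.22) for H2-Q6 and 2.00 (SE 0.20) for H2-Q7, and the sum of both rows gave 2.14. H2-Q2 went the other way, with 0.41 to 4.65 TPM (median 2.27 TPM) in Esr1 libraries and 1.00 to 21.8 TPM (median 8.67 TPM) in CYP19A1 libraries. All its Esr1 libraries were below all CYP19A1 libraries in 5 of 8 pairs, and its log2 difference was -1.41 (SE 0.19). Of all 20209 genes tested, 1.3% were higher without overlap in at least 5 of the 8 pairs, and 0.891% were lower. H2-Q4 ran from 12.5 to 75.1 TPM (median 32.6 TPM) in Esr1 libraries and from 7.43 to 43.5 TPM (median 24.3 TPM) in CYP19A1 libraries, with a log2 difference of 0.53 (SE 0.15). H2-Q10 ran from 0.33 to 30.35 TPM in Esr1 libraries and from 0.53 to 29.0 TPM in CYP19A1 libraries. Its log2 difference was -0.12 (SE 0.31) and took either sign under other settings (-0.33 to 0.04).

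H2-T23 ran from 4.64 to 118 TPM (median 51.2 TPM) in Esr1 libraries and from 4.64 to 71.8 TPM (median 27.4 TPM) in CYP19A1 libraries. Its group mean on the log scale was the higher in Esr1 glands in 8 of 8 pairs, without overlap in 3 (7.87% of all genes in at least 3), and its log2 difference was 0.93 (SE 0.27). Of the 9 genes tested, 7 were past an adjusted p of 0.05 upward and 1 downward in this contrast, where 24.4% of all genes were past it, 19.2% upward and 5.19% downward. The median of the 9 differences was 0.92, and that of all genes tested was 0.10. After rescaling, 6 were past it upward and 1 downward, where 40% of all genes were past it. These counts describe the genes and nothing is read from them, since this contrast chose the genes. In bulk tissue, fewer cells of a type and less RNA per cell cannot be told apart.

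The difference between the models was followed through induction, with age not matched between uninduced glands and those with long induction. In uninduced glands the log2 difference was 2.05 (SE 0.36) for H2-Q6, 1.86 (SE 0.32) for H2-Q7, 0.96 (SE 0.25) for H2-K1 and -1.46 (SE 0.31) for H2-Q2. In glands with 6 to 18 months of induction it was 2.00 (SE 0.36) for H2-Q6, 1.72 (SE 0.32) for H2-Q7, 0.62 (SE 0.25) for H2-K1 and -1.94 (SE 0.31) for H2-Q2. The values of 4 other genes were smaller with long induction than in uninduced glands. They were 0.09 and 0.57 for H2-Q4, 0.20 and 0.78 for H2-D1, 0.44 and 0.93 for B2m, and 0.52 and 0.77 for H2-T23. After rescaling they were 0.24 and 0.43 for H2-Q4, 0.36 and 0.63 for H2-D1, and 0.60 and 0.78 for B2m. For H2-T23 they were 0.67 and 0.63, so its value was no longer the smaller with long induction. The median of all genes was -0.12 with long induction and 0.10 in uninduced glands. The uninduced glands include younger ages, so age and induction cannot be told apart here, and whether these values differ was not tested. At 24 months alone, the response to long induction was compared between the models at matched age. The difference (Esr1 minus CYP19A1) was 0.66 (SE 0.70) for H2-D1, 0.15 (SE 0.54) for B2m and 0.07 (SE 0.52) for H2-Q4. It was -0.47 (SE 0.94) for H2-T23, and none of the 4 passed by limma. Positive values mean a larger difference between the models with long induction. With 1 week of induction the log2 difference between the models was 2.46 (SE 0.44) for H2-Q6 and 2.61 (SE 0.40) for H2-Q7. It was 1.56 (SE 0.31) for H2-K1 and -0.55 (SE 0.38) for H2-Q2. That stratum holds the 3 CYP19A1 libraries of 12 months with much ribosomal RNA, and the median of all genes was 0.45 there. After rescaling, the 4 values were 1.84, 2.00, 0.90 and -1.02. In the 12-month pair of that stratum, H2-Q2 was at 3.12, 4.59 and 3.96 TPM in Esr1 libraries and 6.52, 1.49 and 1.03 TPM in CYP19A1 libraries. It was the 1 pair of 8 in which the mean of H2-Q2 on the log scale was higher in Esr1 glands. Rescaled, the CYP19A1 values of H2-Q2 in that pair were 11.5, 2.89 and 1.39. The counts by stratum are descriptions too. Of the 9 genes, 4 were past the threshold upward and 1 downward in uninduced glands, where 2.95% of all genes were past it, 1.97% upward and 0.98% downward. With 1 week of induction it was 6 upward and 0 downward, where 46.5% of all genes were past it, 45.3% upward and 1.21% downward. With long induction it was 2 upward and 1 downward, where 4.15% of all genes were past it, 1.18% upward and 2.97% downward, and after rescaling it was 4 upward and 1 downward, where 9.96% of all genes were past it. The count in uninduced glands was 3 without any one of 7 single libraries.

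**Figure D2:**
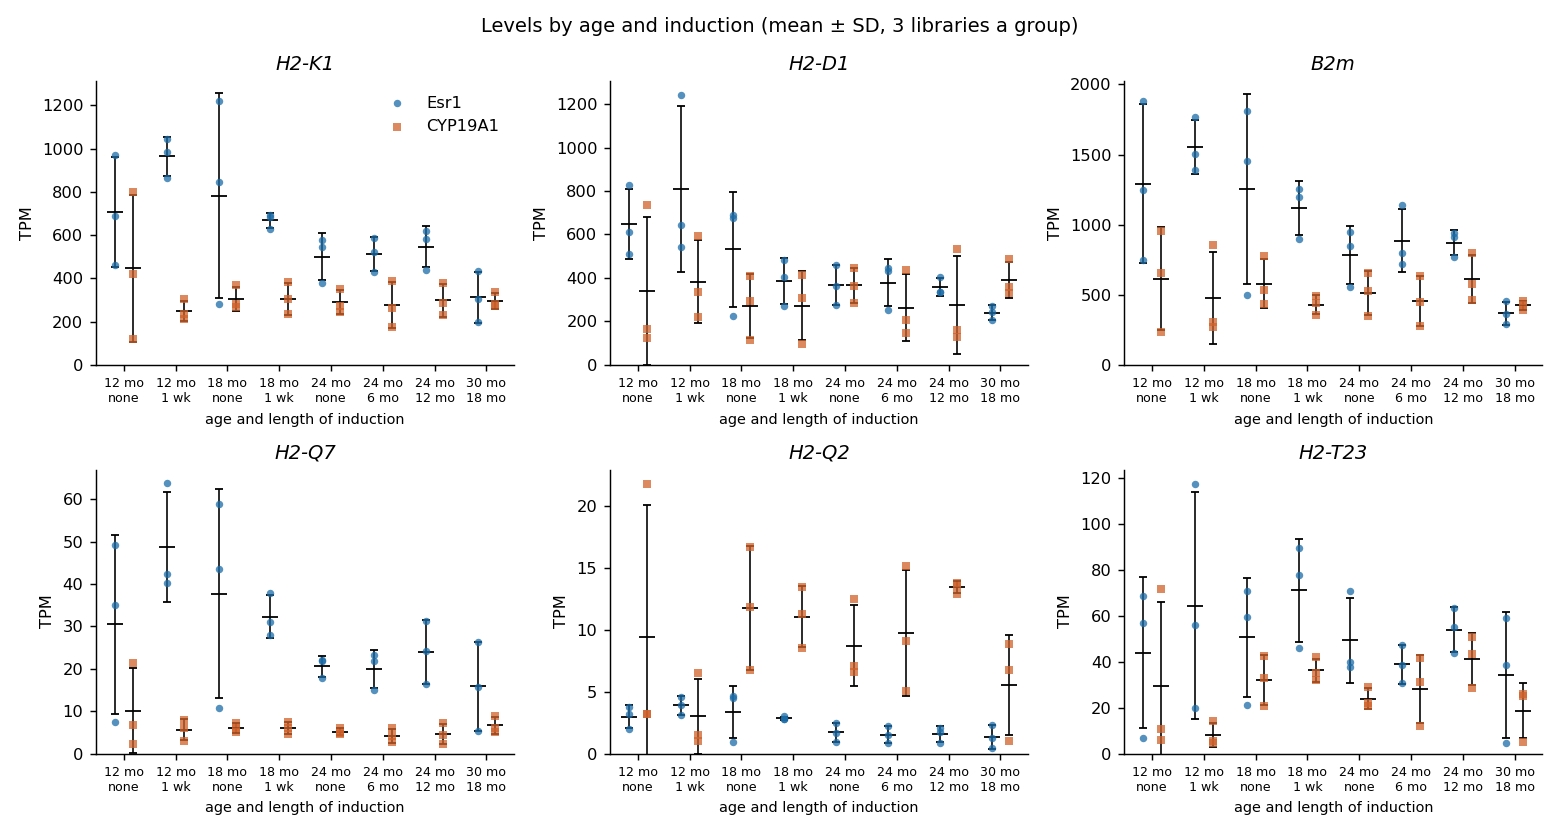
TPM of 6 class I genes in each group, by age and length of induction. Blue circles are Esr1 libraries and orange squares CYP19A1 libraries, with the mean ± SD of 3 libraries in black and error bars cut at 0. H2-Q7 is higher and H2-Q2 lower in most Esr1 groups, and B2m in Esr1 glands is lower at 30 months (289.6 to 453 TPM) than in 24-month glands with 12 months of induction (767 to 938 TPM).

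Libraries of a single group differed widely, and not all class I genes moved together. In the CYP19A1 model, uninduced glands of 12 months had H2-Q2 at 3.22, 21.8 and 3.23 TPM in replicates 1, 2 and 3, H2-Q6 at 1.31, 2.42 and 20.1 TPM, and H2-T23 at 6.05, 71.8 and 10.7 TPM. Replicate 2 was thus high in H2-Q2 and H2-T23, and replicate 3 was high in H2-Q6. H2-D1 was at 124, 164 and 733 TPM in the same libraries. Replicates 1 and 3 are among the libraries with much ribosomal RNA. After rescaling, H2-Q2 was at 10.4, 15.1 and 2.78, H2-D1 at 402, 113 and 631, H2-Q6 at 4.23, 1.67 and 17.3, and H2-T23 at 19.5, 49.6 and 9.19, so that replicate 1 was no longer below replicate 2 in H2-D1 or H2-Q6. The CYP19A1 glands with 12 months of induction had H2-D1 at 535, 163 and 128 TPM and H2-Q6 at 5.98, 1.53 and 0.98 TPM, while H2-Q2 stayed between 12.9 and 13.8 TPM. Replicate 1 was high in H2-D1 and H2-Q6 there, and the other two were low in both.

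Over the 24 CYP19A1 libraries, the rank correlation (Spearman) of rescaled TPM was -0.73 between H2-Q2 and H2-Q6, and -0.77 between H2-D1 and H2-T23. H2-D1 and H2-Q6 had 0.81. Over the 24 Esr1 libraries, H2-Q2 and H2-Q6 had 0.74, and H2-D1 and H2-T23 had -0.33. H2-Q6 and H2-Q7 went together in both models, with 0.95 in Esr1 libraries and 0.81 in CYP19A1 libraries. These values are descriptions over libraries of 8 groups that share scaling factors and, for similar genes, reads. The ratio of H2-Q6 plus H2-Q7 to H2-Q2 does not depend on the scaling of a library. It ran from 8.54 to 44.1 (median 23.9) in Esr1 libraries and from 0.256 to 13.8 (median 1.17) in CYP19A1 libraries. The CYP19A1 values fell in separate sets. Within the Esr1 range were uninduced replicate 3 of 12 months (12.8) and, with 1 week of induction at 12 months, replicates 2 and 3 (12.4 and 13.4). Replicate 3 of 30 months (13.8) was there too, and the highest of the other CYP19A1 libraries was 2.80.

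**Figure D3:**
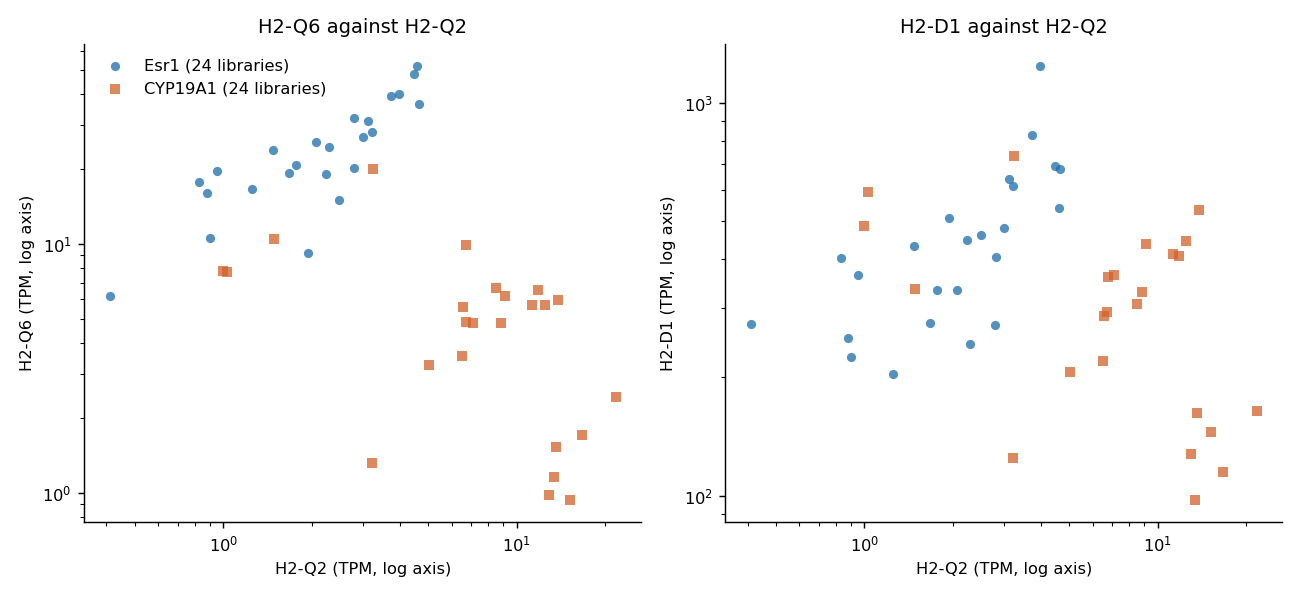
H2-Q6 (left) and H2-D1 (right) against H2-Q2 in each library, in TPM on log axes. Blue circles are 24 Esr1 libraries and orange squares 24 CYP19A1 libraries. H2-Q6 goes up with H2-Q2 among Esr1 libraries (rank correlation 0.74) and down among CYP19A1 libraries (-0.73).

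The other genes of the MHC region were compared between the models. From H2-K1 to H2-M2 (chromosome 17, 33996017 to 37483552), 151 genes were tested, and 53 (35.1%) passed between the models, 38 higher and 15 lower in Esr1 glands. Without the class I genes described here it was 46 of 143 (32.2%), with 24.4% over all genes, and the difference between these shares was not tested. The 5 with the largest difference were H2-Ea-ps, H2-Q5, Ubd, H2-T-ps and Cdsn. H2-Ea-ps, a pseudogene of a class II alpha chain, had a median of 1.11 TPM in Esr1 libraries and 26.9 TPM in CYP19A1 libraries, with a log2 difference of -3.33 (SE 0.27). It was listed at 0 in 7 of 24 Esr1 libraries. H2-T-ps, annotated as a class I pseudogene, had medians of 2.10 TPM in Esr1 libraries and 12.2 TPM in CYP19A1 libraries (log2 difference -1.72, SE 0.23). H2-Q5, a Q gene between H2-Q4 and H2-Q6, had medians of 8.77 TPM and 0.845 TPM in the same order (log2 difference 2.26, SE 0.20). Ubd, the ubiquitin-like modifier FAT10, had medians of 22.8 TPM in Esr1 libraries and 2.23 TPM in CYP19A1 libraries (log2 difference 2.25, SE 0.26). Cdsn, which encodes corneodesmosin of skin, had 3.95 TPM and 0.595 TPM (log2 difference 1.56, SE 0.23). Neighbouring genes of opposite direction thus lie within the same region.

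**Figure D4:**
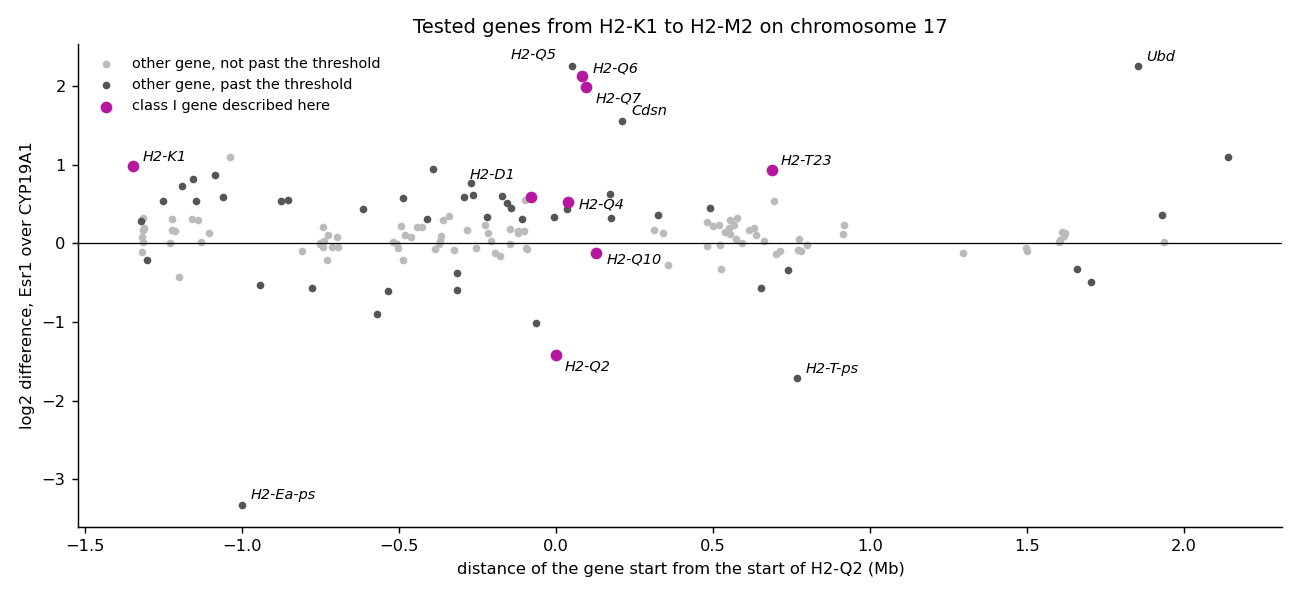
Log2 difference between the models (Esr1 over CYP19A1) of the 151 tested genes from H2-K1 to H2-M2, against the distance of the gene start from the start of H2-Q2 in megabases. Magenta points are class I genes described here, dark points other genes past an adjusted p of 0.05, and light points the remaining genes. H2-Q5, H2-Q6 and H2-Q7 (2.26, 2.13 and 2.00) lie beside H2-Q2 (-1.41).

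In some groups 1 library was low in H2-T23 and in other genes of the MHC region, chosen here after their values were seen. In Esr1 glands with 1 week of induction at 12 months, H2-T23 was at 56.0, 118 and 19.9 TPM in replicates 1, 2 and 3. The class II beta chain gene H2-Eb1 was at 67.1, 156 and 4.57 TPM and the T-region gene H2-T22 at 36.3, 66.9 and 7.70 TPM in those libraries. H2-D1 was highest in replicate 3, at 642, 540.3 and 1244 TPM, and so were the T-region gene H2-T10, at 10.2, 4.94 and 23.9 TPM, and H2-Ea-ps, at 2.28, 0.68 and 6.78 TPM. In Esr1 glands of 30 months, replicate 3 had 4.64 TPM of H2-T23, against 58.9 and 38.8 TPM in replicates 1 and 2, with H2-Eb1 at 71.6, 50.5 and 1.11 TPM in replicates 1 to 3. In CYP19A1 glands of 30 months, replicate 3 had 4.83 TPM of H2-T23, with 25.0 and 26.1 TPM in replicates 1 and 2, and 1.58 TPM of H2-Eb1, with 23.1 and 40.8 TPM. In these 3 groups replicate 3 was low in H2-T23, H2-Eb1 and H2-T22 and highest in H2-T10. In uninduced Esr1 glands of 12 months it was replicate 1 that was low in H2-T23, H2-Eb1 and H2-T22, at 6.64, 1.47 and 4.13 TPM. CYP19A1 glands with 1 week of induction at 12 months broke the pattern, with H2-T23 at 14.3, 5.26 and 4.64 TPM and H2-Eb1 at 11.3, 1.22 and 31.0 TPM in replicates 1 to 3. The replicate 3 library of the Esr1 glands of 30 months is also among those with much ribosomal RNA, and that of the CYP19A1 glands is not. What else those libraries share was not tested.

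By the rank correlation of rescaled TPM over all 48 libraries, which is a description with no test and includes the difference between the models, the genes most like H2-K1 were Parp9 (0.91), Tap1 (0.90) and Hist1h4d (0.87). Tap1, the peptide transporter subunit, was also the nearest to H2-Q4 (0.90), followed by Nlrc5 (0.82) and Cdca7l (0.81). H2-Q5 (0.92), Gm11131 (0.90) and Tap1 (0.89) were nearest to H2-Q6, and Gm11131 (0.91), H2-Q5 (0.91) and Tap1 (0.87) to H2-Q7. H2-D1 was nearest to H2-T10 (0.82), BC023719 (0.72) and Arl6ip1 (0.69). The genes nearest to H2-Q2 were H2-Ea-ps (0.82), Tnxa (0.82) and AC174471.1 (0.80), and those nearest to H2-T23 were H2-M2 (0.85), H2-T22 (0.84) and H2-Eb1 (0.82), all on chromosome 17. B2m was nearest to M6pr (0.91), Sept2 (0.90) and Cetn3 (0.88), on chromosomes 6, 1 and 13. The likeness was weakest for H2-Q10, whose nearest were Pcsk4 (0.56), Mmd2 (0.55) and 8430429K09Rik (0.54).

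Induction for 1 week changed none of the class I genes past the threshold. At 12 months in the Esr1 model, H2-K1 was at 865, 983 and 1044 TPM with induction and 464, 971 and 688 TPM without it. Those groups overlapped, and the log2 change was 0.51 (95% interval -0.39 to 1.40). H2-Q7 had the largest change of the 9 genes. It was at 42.3, 63.8 and 40.3 TPM with induction, against 7.41, 49.1 and 35.0 TPM without it, which overlap, a log2 change of 0.98 (SE 0.56, interval -0.16 to 2.12, limma adjusted p = 0.754). Of the 9 genes, 9 had a positive change, with a median of 0.64, where the median of all genes was 0.22. After rescaling, 8 were positive and the median was 0.36. None of the 9 passed by limma after Benjamini-Hochberg adjustment, nor did any have an unadjusted p under 0.05, and 0.0099% of all genes passed. At 18 months the largest change was that of H2-Q10, at 11.3, 15.1 and 19.7 TPM with induction and 5.52, 4.11 and 8.12 TPM without it. Those 6 values did not overlap, as was so for 4.76% of all genes, and the log2 change of 1.25 (SE 0.87) had a limma adjusted p of 1.00. H2-K1 had a log2 change of 0.01 (interval -0.88 to 0.90) at 18 months, and 0 of the 9 genes and 0% of all genes passed, with 0 of the 9 at an unadjusted p under 0.05.

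In the CYP19A1 model, 1 week of induction at 12 months gave H2-K1 at 210.5, 233 and 302 TPM with induction and 120.2, 422 and 799 TPM without it. The log2 change was -0.48 (interval -1.37 to 0.41) and -0.06 after rescaling. The median of all genes was -0.32. Of the 9 genes 2 had a positive change, with a median of -0.38, and after rescaling 5 did, with a median of 0.03. H2-Q10, with the largest change, was at 11.2, 0.53 and 0.58 TPM with induction and 6.99, 29.0 and 1.33 TPM without it, a log2 change of -1.42 (SE 0.87, limma adjusted p = 0.548). None of the 9 genes and 0% of all genes passed in that comparison by limma. Of the 9, 1 had an unadjusted p under 0.05, H2-Q2 (-1.14, SE 0.53), as did 6.78% of all genes. The uninduced replicate 1 holds 67.2% of its TPM on the ribosomal RNA genes. Without it, H2-K1 (-1.24) and H2-Q2 (-1.55) passed as lower, where 61.4% of all genes passed as lower. At 18 months H2-K1 was at 303, 234 and 381 TPM with induction and 266, 282 and 367 TPM without it, a log2 change of -0.01 (interval -0.90 to 0.88). H2-Q10 again had the largest change, at 12.1, 19.7 and 20.2 TPM with induction and 4.98, 13.3 and 4.76 TPM without it (log2 change 1.18, SE 0.87). At 18 months 0 of the 9 genes passed, 0% of all genes did, and 0 of the 9 had an unadjusted p under 0.05.

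Long induction at 24 months changed none of the class I genes past the threshold. In the Esr1 model, H2-K1 was at 586, 519.9 and 431 TPM with 6 months of induction, at 438, 581 and 621 TPM with 12 months, and at 378, 544 and 579 TPM without induction. These groups overlapped, and the log2 changes were 0.05 (interval -0.84 to 0.94) for 6 months and 0.14 (interval -0.75 to 1.03) for 12 months. H2-Q10 had the largest change of the 9 genes in both comparisons, -0.97 (SE 0.87) for 6 months and -0.33 (SE 0.87) for 12 months. In the CYP19A1 model, H2-K1 was at 174, 388 and 264 TPM with 6 months of induction, at 379, 285 and 229 TPM with 12 months, and at 273, 352 and 245 TPM without induction. Its log2 changes were -0.14 (interval -1.03 to 0.75) for 6 months and 0.02 (interval -0.87 to 0.91) for 12 months. H2-Q6 had the largest changes, -0.71 (SE 0.63) for 6 months and -0.96 (SE 0.63) for 12 months, with adjusted p of 1.00 by limma in both. H2-Q2 was higher without overlap after 12 months, at 13.8, 13.6 and 12.9 TPM with induction and 7.08, 12.5 and 6.56 TPM without it, as 7.92% of all genes were higher or lower without overlap. Its log2 change was 0.62 and did not pass. In these 4 comparisons 0 of the 9 genes passed by limma and 0 had an unadjusted p under 0.05. Over all genes, 0% and 0.00495% passed for 6 and 12 months in the Esr1 model, and 0% and 0.0198% (0.0148% upward) in the CYP19A1 model.

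Age was compared in uninduced glands, 24 months over 12 months. In the Esr1 model H2-D1 had the largest change, at 275, 364 and 460.1 TPM at 24 months and 509.6, 827 and 613 TPM at 12 months. The groups did not overlap, as was so for 12.5% of all genes, and the log2 change of -0.83 (SE 0.57, interval -1.98 to 0.33) did not pass (limma adjusted p = 0.869). H2-K1 differed by -0.46 (interval -1.35 to 0.43) and B2m by -0.66 (interval -1.55 to 0.24). H2-T23 went the other way, at 0.63 (interval -0.93 to 2.19), and was the 1 of the 9 genes with a positive change. The median of the 9 was -0.46, where that of all genes was -0.08. In the CYP19A1 model H2-D1 was at 365, 446 and 287 TPM at 24 months and 124, 164 and 733 TPM at 12 months, a log2 change of 0.54 (interval -0.61 to 1.70) that was 0.16 after rescaling. The median of all genes was 0.22 there, and 2 of the 3 libraries of 12 months hold 67.2% and 22.2% of their TPM on ribosomal RNA genes. None of the 9 genes passed in either model by limma, and 0 had an unadjusted p under 0.05, where 0.574% of all genes passed in the Esr1 model (0.327% upward, 0.247% downward) and 4.24% in the CYP19A1 model (4.18% upward, 0.0643% downward).

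The 30-month glands, with 18 months of induction, were set against 24-month glands with 12 months, so age and length of induction cannot be told apart. In the Esr1 model B2m was at 453, 360.1 and 289.6 TPM at 30 months and 938, 909 and 767 TPM at 24 months. All 30-month values lay below all 24-month values, as 36.2% of all genes were higher or lower without overlap in this comparison. The log2 change was -1.26 (SE 0.44, interval -2.16 to -0.36), with an unadjusted p of 0.00716 and an adjusted p of 0.218 by limma, so it did not pass. The median of all genes was -0.36 in this comparison, and B2m had -0.76 after rescaling. Without the 30-month library with much ribosomal RNA (replicate 3) it was -1.10. H2-K1 was at 434, 306 and 197 TPM at 30 months and 438, 581 and 621 TPM at 24 months, also without overlap, a log2 change of -0.86 (interval -1.75 to 0.03) that was -0.36 after rescaling. H2-D1 was lower without overlap too, with a log2 change of -0.58 (interval -1.73 to 0.58) that was -0.07 after rescaling.

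In the CYP19A1 model the same comparison gave changes of both signs. H2-Q2 was at 8.82, 6.74 and 1.00 TPM at 30 months and 13.8, 13.6 and 12.9 TPM at 24 months, without overlap, a log2 change of -1.44 (SE 0.53, interval -2.51 to -0.36). H2-Q6 was at 4.82, 9.95 and 7.78 TPM at 30 months and 5.98, 1.53 and 0.98 TPM at 24 months, which overlap, with a log2 change of 1.33 (SE 0.63). These 2 of the 9 genes had an unadjusted p under 0.05, as did 1.64% of all genes. The adjusted p of both genes by limma was 0.969. H2-T23 was at 25.0, 26.1 and 4.83 TPM at 30 months and 28.7, 51.0 and 43.6 TPM at 24 months, also without overlap, with a log2 change of -1.36. Replicate 3 was the lowest 30-month library in both H2-Q2 and H2-T23, and its ratio of H2-Q6 plus H2-Q7 to H2-Q2 was 13.8. B2m was lower without overlap in this model as well, with a log2 change of -0.50 (interval -1.39 to 0.40) that was -0.25 after rescaling. In this comparison 22.3% of all genes did not overlap. H2-K1 had a log2 change of 0.01 (interval -0.88 to 0.91). None of the 9 genes passed in either model by limma, where 0.139% of all genes passed in the Esr1 model and 0% in the CYP19A1 model. In the Esr1 model 1 of the 9, B2m, had an unadjusted p under 0.05, as did 15.9% of all genes.

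**Figure D5:**
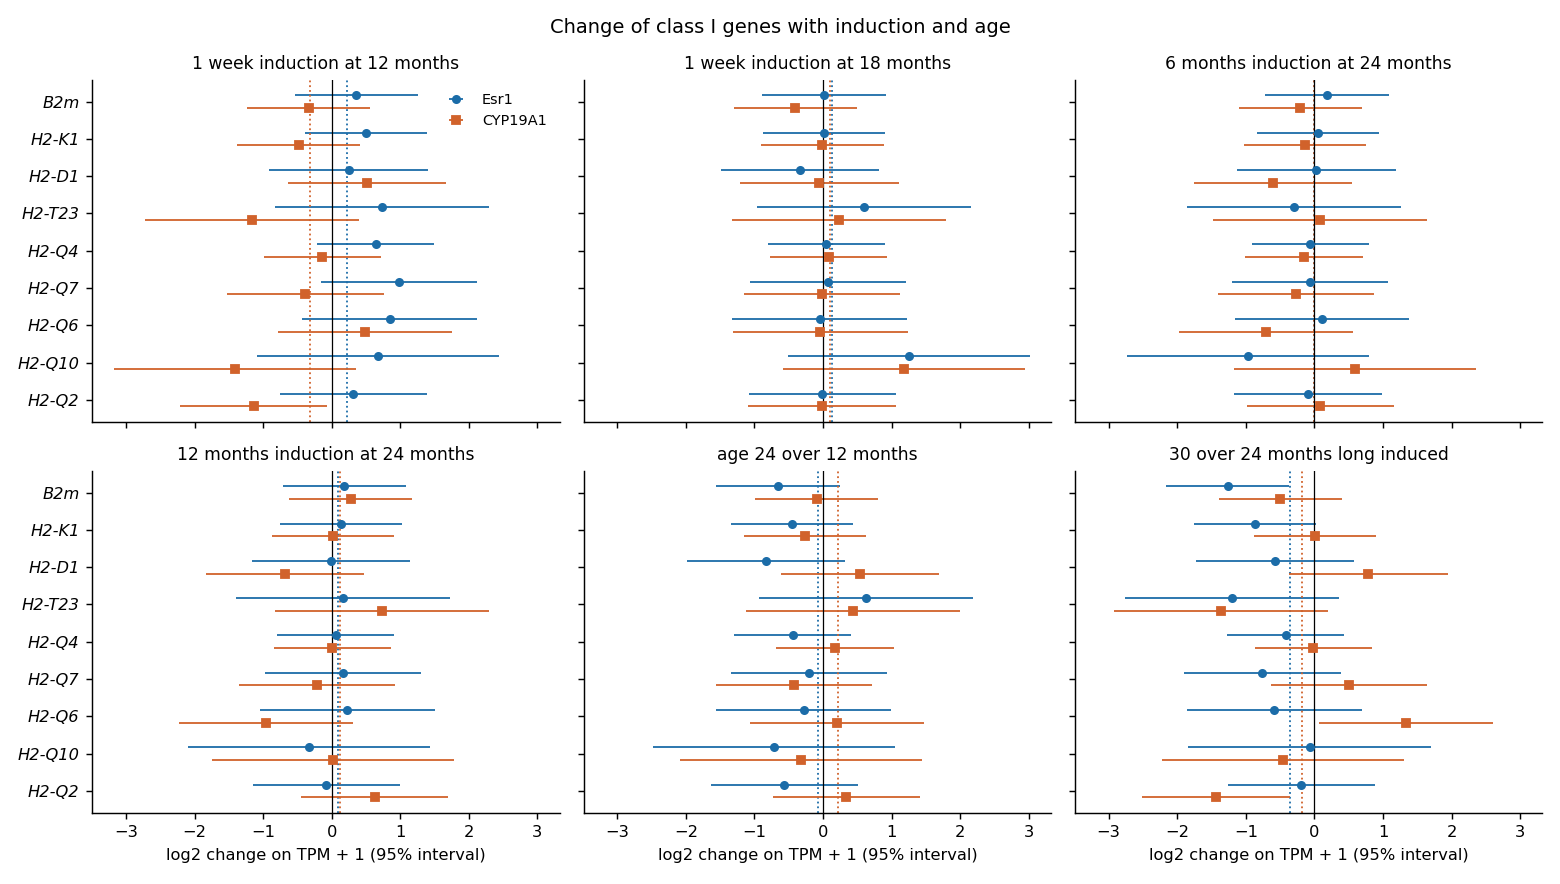
Log2 change (on TPM + 1) of the 9 class I genes tested in 6 comparisons within each model, with 95% intervals. Blue circles are the Esr1 model and orange squares the CYP19A1 model, and dotted lines give the median change of all genes tested. None of the changes passed after adjustment over 20209 genes.

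Whether the models responded differently was tested as an interaction. The difference between the models in the 1-week response, averaged over both ages, was largest for H2-T23 at 1.13 (SE 0.77, interval -0.43 to 2.69, limma adjusted p = 0.548). In the response to long induction at 24 months it was largest for H2-Q6 at 1.00 (SE 0.77, limma adjusted p = 1.00), and in the age change for H2-D1 at -1.37 (SE 0.81, limma adjusted p = 0.799). For H2-K1 the 3 differences were 0.50 (interval -0.39 to 1.39), 0.15 (interval -0.94 to 1.24) and -0.20 (interval -1.46 to 1.06). After rescaling they were 0.11, 0.14 and 0.31, so the age difference turned sign, and that of H2-D1 was -0.86. The medians of all genes were 0.30 for the 1-week response and -0.32 for the age change. In the 3 interactions 0 of the 9 genes passed by limma and 0 had an unadjusted p under 0.05. Over all genes, 0%, 0% and 0.0396% passed.

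The genes that load class I were tested between the models as well. Of 13 genes of peptide processing and loading, 6 were higher in Esr1 glands and 0 lower over all groups, with a median log2 difference of 0.36, where that of all genes was 0.10. Tap1, a subunit of the peptide transporter, had medians of 17.1 TPM in Esr1 libraries and 10.2 TPM in CYP19A1 libraries and a log2 difference of 0.82 (SE 0.17). Psmb8, a subunit of the immunoproteasome, had 45.2 TPM and 33.1 TPM in the same order (log2 difference 0.55, SE 0.16). Calr, the chaperone calreticulin, had 156 TPM and 113 TPM (log2 difference 0.41, SE 0.13). Of 11 regulators of class I transcription, 3 were higher and 0 lower, with a median of 0.19, while 19.2% of all genes were higher, so the share of regulators is near that of all genes. Among them were Nlrc5 (0.54, SE 0.15) and Irf9, which carries interferon signals in the nucleus (0.47, SE 0.13). After rescaling, 8 of the 13 loading genes and 4 of the 11 regulators were higher and 0 lower, where 40% of all genes were past the threshold in either direction.

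Of 25 interferon-induced genes tested, 17 were higher and 1 lower in Esr1 glands, with a median of 0.38. Ifit3 (1.31, SE 0.12) and Ifit1 (0.96, SE 0.11), both antiviral effectors, were among the higher, and the guanylate-binding protein gene Gbp6 was the lower one (-1.08, SE 0.17). Gbp6 had a median of 2.15 TPM in Esr1 libraries and 7.08 TPM in CYP19A1 libraries. Of 15 other class I and class I-like genes tested, 4 were higher and 2 lower, with a median of 0.04. H2-Q5 (2.26, SE 0.20) and H2-M2 (1.10, SE 0.17) were higher, and H2-T-ps (-1.72, SE 0.23) was lower. Of 11 receptor genes for class I, 4 were higher and 2 lower, with a median of 0.31. Cd8a (0.85, SE 0.16) and Cd8b1 (0.44, SE 0.14), the CD8 chains, and Cd160 (0.47, SE 0.10) were higher, and Klra17 and Klra4, of the Ly49 family, were lower (-0.36, SE 0.07, and -0.41, SE 0.11). Of 11 class II genes, 4 were higher and 1 lower, with a median of 0.43. H2-Ab1 (0.88, SE 0.20) and H2-DMb1 (0.73, SE 0.17) were higher, and H2-Ea-ps (-3.33, SE 0.27) was the lower one. Each of these genes passed by limma after adjustment over all genes, of which 24.4% passed. In the 15 comparisons within models or between their responses, 0 of the 86 genes of the 6 lists passed by limma. At an unadjusted p under 0.05 were 0 to 14 of them, and 1.13% to 15.9% of all genes. The count of 14 was for age in the Esr1 model (24 over 12 months), with 7.68% of all genes. Age in the CYP19A1 model gave 1, with 14.7% of all genes.

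Markers of several cell types differed with the class I genes between the models. Of all genes tested, 19.2% were higher and 5.19% lower in this contrast. Of 8 luminal epithelial markers, 8 were higher in Esr1 glands over all groups, and their summed level ran from 163 to 985 TPM in Esr1 libraries and from 84.3 to 675 TPM in CYP19A1 libraries. Of 10 T cell markers 6 were higher and 0 lower, with sums from 10.8 to 67.1 TPM in Esr1 libraries and from 4.68 to 63.2 TPM in CYP19A1 libraries. Of 4 NK cell markers tested 3 were higher and 0 lower, with sums over 7 genes from 2.29 to 28.6 TPM and from 1.78 to 14.9 TPM in the same order. Of 9 macrophage and dendritic cell markers 5 were higher and 0 lower, with sums over 10 genes from 171 to 881 TPM and from 74.2 to 768 TPM. Of 6 endothelial markers 0 were higher and 3 lower, with sums from 57.9 to 152 TPM and from 36.8 to 211 TPM. Of 7 B cell markers 0 were higher and 0 lower. Of 6 milk genes 6 were higher, with sums from 46.9 to 37256 TPM in Esr1 libraries and from 93.3 to 4687 TPM in CYP19A1 libraries. Of 5 lymph node stroma markers, Glycam1 of the milk list among them, 3 were higher and 0 lower. Their sums ran from 13.5 to 8212 TPM in Esr1 libraries and from 0.89 to 846 TPM in CYP19A1 libraries. The highest sums were almost all Glycam1, which reached 8204 TPM in Esr1 libraries and 834 TPM in CYP19A1 libraries. The sums thus cannot be read apart from the milk list. Liver markers were near 0, with a sum over 6 genes of at most 7.08 TPM in Esr1 libraries and 7.0 TPM in CYP19A1 libraries. The other lists are given by median sum, in Esr1 and then CYP19A1 libraries. They were 898 and 701 TPM for plasma cells, 5.02 and 2.445 TPM for granulocytes, and 284 and 164 TPM for basal and myoepithelial cells. For fibroblasts and matrix they were 803 and 882 TPM, for white adipocytes 3548 and 3767 TPM, and for brown adipocytes 221 and 261 TPM. Skeletal muscle had 11467 and 16136 TPM, with single libraries from 155 to 38928.5 TPM. No marker was at 0 in every library. The part of these cell types in the class I differences was not tested.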

How the data were processed

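RNA of 48 libraries in 16 groups of 3 was analysed. The deposited values are TPM per gene, made by the authors. Per the labels, ribosomal RNA was removed and the stranded libraries were read from one end over 75 bases. Tools named in the submitters' processing notes are RSEM 1.3.1, STAR 2.7.9a, Trim Galore 0.6.5 and FastQC 0.11.9, with build mm10. The annotation release is not given in the sources used here, and 55094 of the 55487 identifiers were found in GENCODE M21 under the same version.

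A gene was tested if 3 or more libraries reached 1 TPM (20209 genes). All libraries entered 1 linear model of log2(TPM + 1) with a mean for each group in limma 3.58.1 (R 4.3.3), with a trend in the prior variance. Two-sided p-values were adjusted by Benjamini-Hochberg within each of 19 comparisons, with a threshold of 0.05. The code was tested on simulated data. Fold changes on this scale understate the change of scarce genes. No counting error is known, because TPM keep no depth. No libraries held identical values. Ranks, shared windows and motifs were computed in Python 3.11.15.

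The class I genes and the gene lists were chosen with earlier results of these data known. Named singly are the 10 genes, at most 3 genes of a list (largest change among those past the threshold), the 3 genes nearest to each member in rank and the 5 largest differences in the MHC region. Klra17, Klra4 and, within single libraries, H2-Eb1 and H2-T22 were named after their values were seen. Same-numbered libraries of different groups did not vary together (median correlation of deviations 0.01, from -0.50 to 0.40 over 360 pairs), so no pairing was used. H2-Q8 and H2-Q9 were not analysed here, so the planned sum of Q genes used H2-Q6 and H2-Q7.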

Additional observations from a re-analysis of the deposited data

How the results depend on the processing

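Of the 19 counts of class I genes past the threshold, the 15 within models or between their responses were 0 under every alternative that gave a value, except that 2 passed in the CYP19A1 comparison of 1 week at 12 months without uninduced replicate 1 (0 to 2 over single libraries left out). Between the models over all groups the count was 8, and 7 to 8 without single libraries. In long-induced glands it was 3, and 5 with rescaled TPM (4 higher, 1 lower) and with TPM over protein-coding genes only (3 higher, 2 lower). In uninduced glands it was 5, and 3 when only the groups compared were fitted. It ran from 3 to 6 without single libraries, and was 3 without 12-month Esr1 replicate 2, 18-month Esr1 replicate 1 or 2, 24-month Esr1 replicate 2 or 3, 18-month CYP19A1 replicate 1 or 24-month CYP19A1 replicate 3. The cause was not tested. With 1 week of induction it was 6, and 6 to 7 without single libraries. With the replicate block, the count between the models over all groups was 8, and no count moved by over 1.5 times. Leaving out the libraries with over 10% of TPM on ribosomal RNA genes gave no value for comparisons that use CYP19A1 glands with 1 week of induction at 12 months, since none of those libraries was left. No direction of a called single-gene change reversed. Of the values of single genes under alternatives, 1410 stayed within the spread or on the same side of the threshold and 7 moved, 6 of them in the 1-week contrast of the models. Depth is unknown, so differences of H2-Q1, at 1.07 TPM or less, are not readable.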
